A study of Bos taurus with 5 samples.

Results

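The genes described here are 4 members of the galectin family, LGALS1, LGALS3, LGALS4 and LGALS8, out of 27607 genes in a table of cattle (Bos taurus) RNA sequencing values. They were chosen by gene symbol with earlier results of these data in view, and each symbol matched a single entry. Levels were measured in 5 libraries, whose tissue labels were brain, skin, lung, heart and limb, with 1 library per label. Per the labels' protocols, cells were lysed and their RNA pre-amplified on a microfluidic chip. No strain, age, treatment or number of animals is given in the sources used here. There were no replicates, so no value below carries an error or a p-value, and every difference describes these libraries and not the tissues.

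Galectins are lectins that bind sugar chains ending in beta-galactosides through a conserved carbohydrate-recognition domain. They are made in the cytosol, leave the cell without a signal peptide and cross-link glycoproteins at the surface and in the matrix, and inside the cell they bind glycans exposed on damaged vesicles. Galectin-1 (LGALS1) has a single domain and forms dimers, galectin-3 (LGALS3) joins its domain to a long flexible tail through which it assembles into larger complexes, and galectin-4 (LGALS4) and galectin-8 (LGALS8) carry a pair of domains on a linker. In mammals LGALS1 is typical of mesenchymal cells, LGALS3 of macrophages and many epithelia, and LGALS4 of gut epithelium, while LGALS8 is made by many cell types.

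Levels are in FPKM (fragments per kilobase of transcript, scaled to the library), a unit that is inferred and not stated. Each library summed to between 1072430 and 1172800 FPKM and held 5109 to 6634 genes above 0. Read depth is unknown, and a gene listed at 0 may lie below what a library could show. Of the genes with a mean of 10 to 100 FPKM over the libraries, 65.9% were listed at 0 in at least 1 of them. The share was 9.65% for means of 100 to 1000 FPKM and 0.917% above that. The labels were checked against defining genes of the 5 tissues. In the brain library 0 of 6 brain entries were above 0, in the skin 1 of 5 skin entries (KRT10, a keratin, at 20.8 FPKM), in the lung 0 of 5 lung entries, in the heart 1 of 6 heart entries (ACTC1, cardiac actin, at 5.21 FPKM) and in the limb 1 of 6 limb entries (ACTA1, skeletal actin, at 37.6 FPKM). Of all 27607 genes only 5109 to 6634 were above 0 in a given library, so low counts of this kind are not particular to the markers. Markers of a tissue also stood under other labels. ACTC1 was at 231 FPKM in the limb and 57.7 FPKM in the brain library, and KRT10 was at 27.8 FPKM in the brain library. The keratin KRT5 was listed only in the lung library (51 FPKM), the surfactant gene SFTPC only in the limb library (34.2 FPKM) and the neuronal gene MAP2 in every library but the brain one. The cartilage regulator SOX9 was at 14.04 FPKM in the heart library and 0 in the limb library. The words brain, skin, lung, heart and limb below therefore name a library by its label only.

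Of the 4 galectins, LGALS1 and LGALS3 were above 0 in all 5 libraries, LGALS8 in 2 and LGALS4 in none. LGALS1 was the most abundant of them in every library and took between 86.0% (skin label) and 96.4% (lung label) of their summed FPKM. That sum was 1312 FPKM in the brain, 4086 in the skin, 4394 in the lung, 7174 in the heart and 3665 in the limb library. As a share of all FPKM in the library it ran from 0.122% under the brain label to 0.650% under the heart label. The brain library thus had the lowest summed galectin level and was also the one with the lowest LGALS1 and LGALS3, but it held the highest LGALS8. FPKM is scaled to the library, so a lower level is relative to the other genes there. Whether it stands for fewer cells of a type, less RNA per cell, or a difference in pre-amplification or depth cannot be told apart here.

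**Figure D1:**
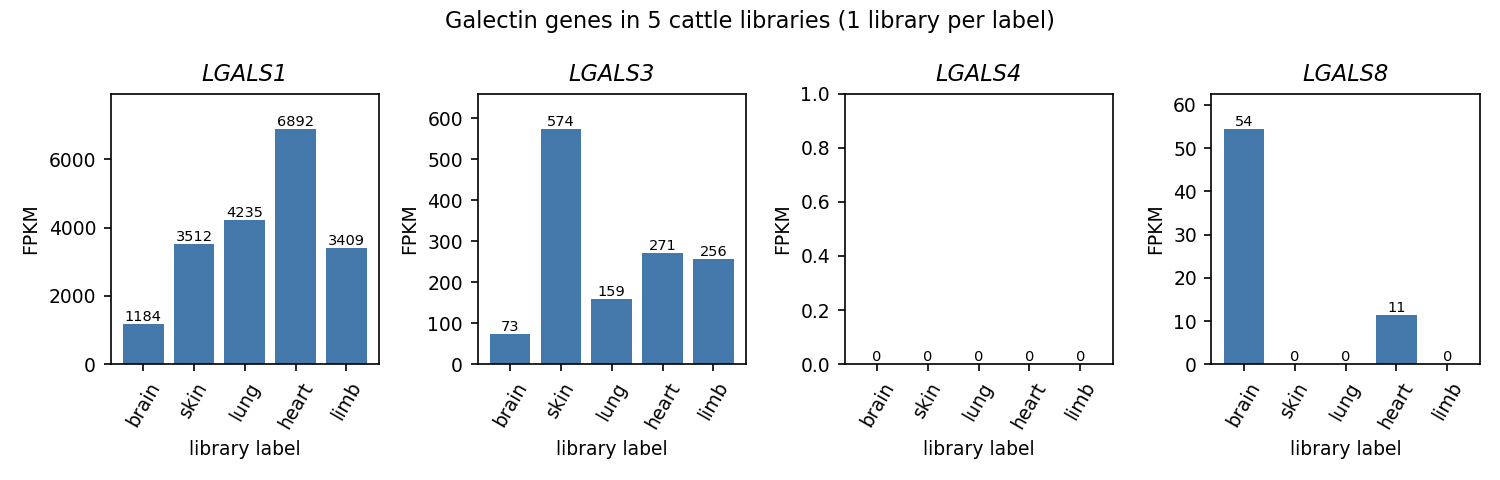
Bars show the FPKM of each galectin gene in each library, on a separate linear axis per gene that starts at 0, with 1 library per label and no error bars. LGALS1 is highest under the heart label (6892 FPKM) and LGALS3 under the skin label (574 FPKM), both are lowest under the brain label, LGALS8 is listed only under the brain and heart labels, and LGALS4 is at 0 throughout.

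LGALS1, the single-domain galectin, stood at 1184 FPKM in the brain, 3512 FPKM in the skin, 4235 FPKM in the lung, 6892 FPKM in the heart and 3409 FPKM in the limb library. It was high in all of them, at rank 14 of 6634 genes above 0 under the heart label, 35 of 5991 under the lung label, 47 of 5319 under the limb label, 53 of 5109 under the skin label and 176 of 6599 under the brain label. Its level was 49.0 times the median of the genes above 0 in the brain library and 323 times that median in the heart one. The skin and limb values lay within a ratio of 1.03 of each other, and their order turned when the libraries were rescaled by the median ratio or by a trimmed mean of log ratios. The heart and brain ends of the order did not move under any of the 3 rescalings.

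Pairs of libraries were compared by a rule of size, under which a gene passed when its higher value was at least 10 FPKM and, after adding 1 FPKM to both, at least 4 times the lower. Adding 1 understates the ratio of low genes. Over the 10 pairs together, 48.1% of the genes that reached 10 FPKM in either library passed. LGALS1 passed in 1 of 10 pairs. It was at 6892 FPKM in the heart against 1184 FPKM in the brain library, a ratio of 5.82 (log2 2.54), and 17.7% of genes passed in that direction. Its next largest ratios were 3.57 for the lung over the brain label and 2.96 for the skin over the brain label, both short of the rule. The 3 ratios among the skin, lung and limb libraries were between 1.03 and 1.24.

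Because abundant genes varied less, the spread of LGALS1 was set beside genes of like level. Of the 218 genes averaging 1000 FPKM or more, 24 passed the rule in at least 1 pair, LGALS1 among them. Of the 216 above 0 in all 5 libraries, the median ratio of the highest to the lowest library was 1.98, and for LGALS1 it was 5.82, exceeded by 13 of the 216 (6.02%). The brain library was the lowest of the 5 for 64 of these 216 genes (29.6%). These counts describe where LGALS1 lies among abundant genes and are no test, since the galectins were chosen with their values known.

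LGALS3, the galectin with the flexible tail, stood at 73.3 FPKM in the brain, 574 FPKM in the skin, 159 FPKM in the lung, 271 FPKM in the heart and 256 FPKM in the limb library. The skin library was high, the brain low, and the heart and limb values lay within a ratio of 1.06. Its rank was 382 of 5109 genes above 0 under the skin label and 1722 of 6599 under the brain label. It passed the rule of size in 1 of 10 pairs, at 574 FPKM in the skin against 73.3 FPKM in the brain library, a ratio of 7.74 (log2 2.95), and 18.3% of genes passed in that direction. The ratios of the heart over the brain label (3.66), the skin over the lung label (3.59) and the limb over the brain label (3.46) fell short. The heart over brain ratio passed at 4.09 after rescaling by the median ratio and at 4.08 after the trimmed mean.

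Among the 1140 genes with a mean of 100 to 1000 FPKM, 44.6% passed the rule in at least 1 pair. The ratio of the highest to the lowest library had a median of 3.29 over the 1030 genes of this class above 0 in all 5, and it was 7.83 for LGALS3. Of the 1030 genes, 161 (15.6%) had a larger ratio. The brain library was the lowest of the 5 for 139 of these 1030 genes (13.5%). LGALS3 thus lay nearer to the middle of its class than LGALS1 did.

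**Figure D2:**
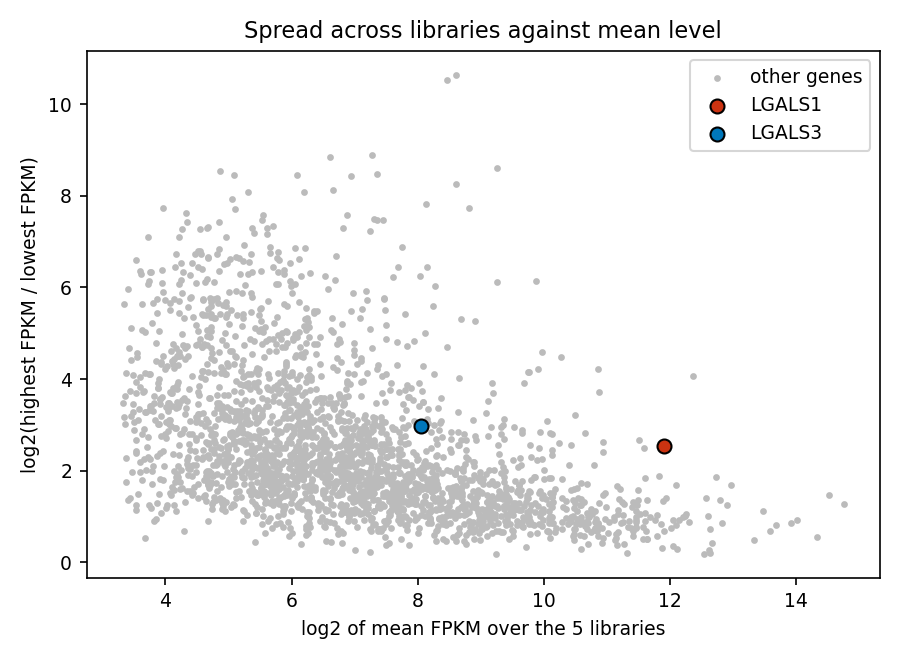
Each point is a gene above 0 in all 5 libraries with a mean of at least 10 FPKM, with the log2 of its mean FPKM on the horizontal axis and the log2 ratio of its highest to its lowest library on the vertical axis. Spread narrows as level rises, and LGALS1 (ratio 5.82) sits above most genes of its level while LGALS3 (ratio 7.83) sits at the upper side of a wider cloud.

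LGALS1 and LGALS3 did not share an order of libraries. LGALS1 ran heart, lung, skin, limb, brain from high to low, and LGALS3 ran skin, heart, limb, lung, brain. The FPKM of LGALS1 was 16.2 times that of LGALS3 in the brain, 6.12 times in the skin, 26.6 times in the lung, 25.4 times in the heart and 13.3 times in the limb library. The balance was therefore most even under the skin label and least even under the lung label. The root mean square difference between their patterns, taken over the 5 libraries on log2(FPKM + 1) values each centred on its own mean, was 0.77.

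LGALS8, a galectin with a pair of domains that detects damaged vesicles and bacteria-containing vacuoles, stood at 54.5 FPKM in the brain and 11.5 FPKM in the heart library and was listed at 0 in the skin, lung and limb libraries. It passed the rule of size in 7 of 10 pairs. Of these, 6 were against a library at 0, for which no ratio is given. They were brain over skin label (where 31.2% of genes passed in that direction), brain over lung label (25.3%), brain over limb label (28.7%), heart over skin label (30.6%), heart over lung label (25%) and heart over limb label (28.2%). In the remaining pair LGALS8 was at 54.5 FPKM in the brain against 11.5 FPKM in the heart library, a ratio of 4.46 (log2 2.16), where 19.3% of genes passed in that direction. Both libraries that listed LGALS8 are the ones with the most genes above 0, 6599 under the brain label and 6634 under the heart label, against 5109 to 5991 in the other 3. The part of this in the zeros was not tested.

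Each library was also set against the other 4. To be called enriched in a library, a gene had to reach 10 FPKM there and, after adding 1 FPKM throughout, 4 times the highest other library. To be called depleted, it had to reach 10 FPKM in each of the other 4, with the lowest of them 4 times the value in question after adding 1. LGALS8 in the brain library was the only call among the 4 galectins, on the ratio of 4.46 to the heart library. Of the genes at 10 FPKM or more in the brain library 7.45% were called enriched there. In any library 24.1% of the genes that could be were called enriched and 29.6% depleted. The call was lost with a pseudocount of 10 and with a ratio of 8. In the class with a mean of 10 to 100 FPKM, to which LGALS8 belongs at a mean of 13.2 FPKM, 589 of 3652 genes (16.1%) were listed at 0 in at least as many libraries. LGALS8 lies near the lower end of this class. Zeros were more frequent in classes of lower mean, so the share among genes of its own level may be higher. In this class 90.1% of genes passed the rule of size in at least 1 pair. Counted over all genes of the class and all 10 pairs, 42.8% of the comparisons passed.

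LGALS4, the gut galectin with a pair of domains, was listed at 0 in all 5 libraries. So were most genes of the table, since 9877 of all 27607 were above 0 in at least 1 library. Of 7 gut epithelial entries only CDH17, a cadherin of intestinal epithelium, was above 0, at 9.27 FPKM in the brain library. VIL1, CDX1, CDX2, KRT20, FABP2 and EPCAM were listed at 0. Of 5 further galectin and galectin-like genes named in the table, LGALSL, a galectin-like gene, was at 2.98 FPKM in the heart library and at 0 elsewhere. LGALS2, LGALS9 and LGALS12, and GRIFIN, a lens galectin-related gene, were at 0 in all 5.

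Markers of cell types known for a galectin were read beside these levels. Of 7 macrophage entries, MRC1, a mannose receptor, was at 13.4 FPKM in the brain library, and CD68, CSF1R, CD14, ADGRE1, AIF1 and PTPRC were at 0 in all 5. LGALS3 was thus high in the skin library, where 0 of the 7 were above 0, and low in the brain one, where 1 was. Macrophages are not the only cells named above for LGALS3, and no general list of epithelial markers was read beside it. Of 8 fibroblast entries 4 were above 0 in every library, with a summed level of 2186 FPKM in the brain, 2355 in the skin, 1087 in the lung, 3016 in the heart and 1720 in the limb library. DCN, LUM, PDGFRB and THY1 were at 0 throughout. VIM, an intermediate filament gene, made up most of that sum, at 1678 FPKM in the brain, 2251 FPKM in the skin, 1011 FPKM in the lung, 2230 FPKM in the heart and 1399 FPKM in the limb library. The collagen gene COL1A2 stood at 311 FPKM in the brain, 19.7 FPKM in the skin, 6 FPKM in the lung, 523 FPKM in the heart and 174 FPKM in the limb library. The collagen gene COL1A1 stood at 131 FPKM in the brain, 11.4 FPKM in the skin, 37.2 FPKM in the lung, 191 FPKM in the heart and 74.4 FPKM in the limb library. COL3A1 lay between 67.6 and 72.6 FPKM in the brain, skin, heart and limb libraries and at 33.5 FPKM in the lung library. COL1A1 and COL1A2 thus had their highest value in the same library as LGALS1, VIM and COL3A1 had theirs in the skin library by a narrow margin, and none of the 4 was lowest in the brain library. The part of these markers in the galectin levels was not tested.

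The genes whose pattern over the 5 libraries was closest to a galectin were found among 1279 named genes averaging 100 FPKM or more, ranked by the root mean square difference of centred log2(FPKM + 1). Closest to LGALS1 were COPS8, a subunit of the COP9 signalosome, at a difference of 0.39, the selenoprotein SELENOM (0.46), IER3IP1 of the endoplasmic reticulum (0.48), the elongin subunit ELOC (0.49) and POLDIP2 (0.49). None of the 1279 came within 0.25. SELENOM, like LGALS1, was highest in the heart (531 FPKM) and lowest in the brain library (124 FPKM), but its lung value of 188 FPKM was second lowest.

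LGALS3 had closer matches. They were CALML4, a calmodulin-like protein, at a difference of 0.24, the ubiquitin ligase RNF181 (0.25), the mitochondrial membrane microprotein STMP1 (0.26) and the mitochondrial ribosomal proteins MRPS18A and MRPS11 (0.32 each), and 2 of the 1279 candidates came within 0.25. RNF181 stood at 930 FPKM in the skin and 108 FPKM in the brain library, and CALML4 at 237 FPKM in the skin and 41.2 FPKM in the brain library. All 5 matches were highest under the skin label and lowest under the brain label, which follows largely from choosing them by likeness to LGALS3. With so few libraries and so many candidates, likeness is a description only.

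**Figure D3:**
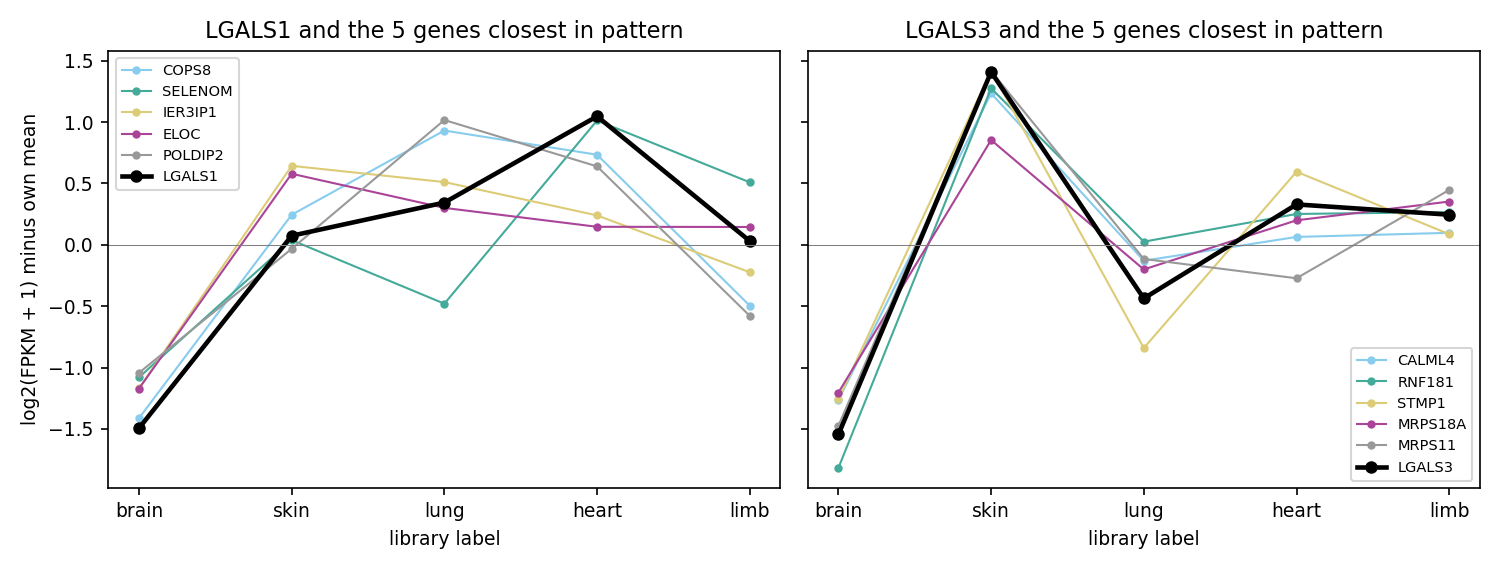
Lines give log2(FPKM + 1) minus the gene's own mean over the 5 libraries, for LGALS1 (left) and LGALS3 (right) in black and the 5 genes closest to each in colour. The genes beside LGALS3 follow its high skin and low brain values with differences of 0.24 to 0.32, while those beside LGALS1 share the low brain value and part from it elsewhere, with differences of 0.39 to 0.49.

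Genes that carry the glycans galectins bind were counted next, in a list of 36 surface, matrix and vesicle proteins. In at least 1 library 24 were above 0, and 12 were above 0 in all 5. Over all 27607 genes these counts were 9877 and 2607. CD63, a tetraspanin of endosomes and the surface, was the most abundant, at 2772 FPKM in the lung and 4740 to 5785 FPKM in the other 4 libraries. BSG (basigin) ranged from 559 to 1031 FPKM. ITGB1, the integrin beta chain shared by many matrix receptors, was at 331 FPKM in the brain and 533 FPKM in the heart library and between 138 and 141 FPKM in the other 3. SLC3A2, the heavy chain of amino acid transporters, ranged from 68.7 to 323 FPKM, the lysosomal membrane protein LAMP2 from 128 to 275 FPKM and the tetraspanin CD9 from 84.4 FPKM under the lung label to 417 FPKM under the skin label.

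LGALS3BP, a secreted glycoprotein named for its binding to galectin-3, stood at 29.3 FPKM in the skin, 4.29 FPKM in the lung, 52.2 FPKM in the heart and 96.3 FPKM in the limb library and was listed at 0 in the brain library. Its highest value was thus not in the skin library, where LGALS3 was highest. Of the 22 carriers that could be called enriched, 3 were, against 24.1% of all genes that could be. They were the transferrin receptor TFRC (61.6 FPKM) and the integrin chain ITGAV (38.7 FPKM) in the skin library and the laminin chain LAMA5 (24.6 FPKM) in the lung library. Of 11 that could be called depleted, only the adhesion molecule ALCAM was, at 3.5 FPKM in the lung library, against 29.6% of all genes that could be. The 12 carriers at 0 in all 5 libraries included PTPRC, SPN and CD7 of leukocytes, which are counter-receptors of galectin-1 on T cells, and the vascular receptor KDR.

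Enzymes that build, branch and cap these glycans were counted in the same way. Of 31 entries 24 were above 0 in at least 1 library, against 9877 of all 27607 genes. Only ST3GAL6, a sialyltransferase, was above 0 in all 5, against 2607 of all genes. It ranged from 57.8 FPKM under the lung label to 167 FPKM under the limb label. B4GALT4, a galactosyltransferase, was at 193 FPKM in the brain and 106 FPKM in the heart library and at 0 in the skin library, where it was called depleted. C1GALT1C1, the chaperone of the enzyme that makes core O-glycans, was at 23.8 to 77.04 FPKM in the other 4 libraries and called depleted under the lung label, where it was at 0. These were 2 of only 3 enzymes that could be called depleted, against 29.6% of all genes that could be. MAN1A1, a mannosidase that trims N-glycans, was above 0 in 3 libraries, at 19.97 to 65.4 FPKM. MGAT4B, a branching enzyme, was also above 0 in 3, at 3.7 to 64.8 FPKM.

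Enriched calls were made for 8 of the 19 glycan enzymes that could be called. They were the branching enzyme MGAT2 (48.3 FPKM) and the sialyltransferase ST3GAL3 (22.8 FPKM) in the skin library, the mannosidase MAN2A2 (27.9 FPKM) and B3GNT2 (20.7 FPKM), which extends poly-N-acetyllactosamine chains, in the lung, the UDP-galactose transporter SLC35A2 (35.6 FPKM), the core fucosyltransferase FUT8 (27.5 FPKM) and the sialyltransferase ST3GAL4 (18.9 FPKM) in the heart, and the galactosyltransferase B4GALT3 (39.8 FPKM) in the limb library. All 8 were below 50 FPKM, and the share over all genes that could be called was 24.1%. MGAT5, which makes the branch that galectin-3 binds well, and MGAT3 were at 0 in all 5. ST6GAL1, whose sialic acid linkage blocks galectin-1 binding, was at 6.47 FPKM in the heart library and 0 elsewhere.

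The last list held 27 entries that act with galectins at damaged membranes, in autophagy and membrane repair. Of these 26 were above 0 in at least 1 library and 13 in all 5, against 9877 and 2607 of all 27607 genes. The autophagy proteins GABARAP (297 to 1412 FPKM), GABARAPL2 (480 to 1081 FPKM) and MAP1LC3B (52.0 to 203 FPKM), the membrane-scission subunits CHMP2A (105 to 728 FPKM) and CHMP3 (54.5 to 287 FPKM), and PDCD6 (34.7 to 245 FPKM), a calcium sensor in repair, had the highest means. CALCOCO2, the autophagy receptor that galectin-8 recruits, stood at 10.5 FPKM in the brain, 1.74 FPKM in the skin, 29.8 FPKM in the lung, 33.7 FPKM in the heart and 5.48 FPKM in the limb library. It was therefore above 0 in all 5 libraries, the 3 that listed LGALS8 at 0 among them, and those zeros cannot be read as absence. Of 23 that could be called enriched, only the growth kinase MTOR was, at 14.5 FPKM in the skin library, against 24.1% of all genes that could be. Of 13 that could be called depleted 3 were, a share near the 29.6% of all genes. They were RRAGA (at 0 in the limb library) and LAMTOR1 (at 0 in the lung library), both of the lysosomal nutrient-sensing complex, and the autophagy regulator BECN1 (1.9 FPKM in the skin library).

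**Figure D4:**
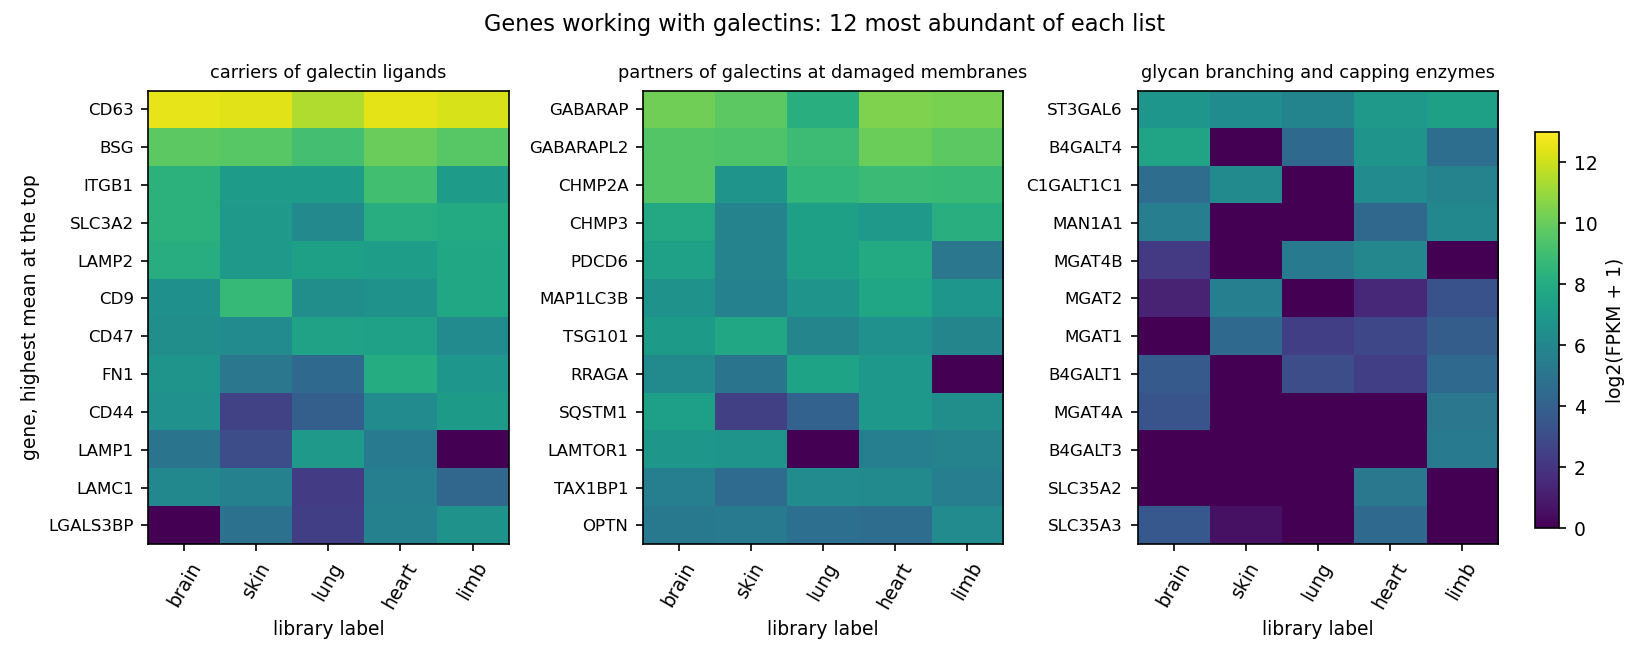
Colour gives log2(FPKM + 1) in each library for the 12 genes with the highest mean in each of the lists of ligand carriers, membrane-damage partners and glycan enzymes. Carriers such as CD63 (2772 to 5785 FPKM) and partners such as GABARAP (297 to 1412 FPKM) fill all 5 columns. The carriers LAMP1 and LGALS3BP and the partners RRAGA and LAMTOR1 are each at 0 in 1 library. Of the glycan enzymes only ST3GAL6 fills all 5 columns.

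By library, each list was summarised as the median difference in log2(FPKM + 1) between that library and the mean of the other 4, over genes averaging 1 FPKM or more. For the 23 ligand carriers it was 0.38 under the brain label, -0.51 under the skin label, -0.95 under the lung label, 0.81 under the heart label and 0.01 under the limb label. For the 24 membrane-damage partners it was 0.64 (brain), -0.42 (skin), -0.71 (lung), 0.75 (heart) and 0.31 (limb). For the 23 glycan enzymes it was -0.73 (brain), -0.86 (skin), -1.08 (lung), 0.42 (heart) and -0.41 (limb). Over all 8694 genes at that level it was 0.15 (brain), -0.73 (skin), -0.16 (lung), -0.01 (heart) and -0.67 (limb). The heart library was the highest of the 5 for each of the 3 lists, as it was for LGALS1, and the lung library was the lowest for each, where LGALS1 was second highest. Nothing particular to the lists is read from these medians.

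Neighbouring genes were taken from the gene order of a RefSeq table of a later cattle assembly (ARS-UCD2.0), without its positions. Beside LGALS1 lie PDXP, listed only in the limb library at 8.45 FPKM, and the nucleolar gene NOL12, at 12.2 to 40.7 FPKM in 4 libraries and at 0 under the lung label. Beside LGALS3 lie MAPK1IP1L, at 44.02 FPKM under the heart label to 112 FPKM under the skin label, and the mitotic gene DLGAP5, listed only in the lung library at 10.3 FPKM. MAPK1IP1L thus had its highest value in the same library as LGALS3, but its brain value, at 82.5 FPKM, was second highest. Beside LGALS8 lie EDARADD, at 0 in all 5, and HEATR1, a ribosome biogenesis gene, at 13.8 FPKM in the brain, 2.11 FPKM in the lung and 15.5 FPKM in the limb library. Next to LGALS4, on the side that could be matched, lies ECH1, an enzyme of fatty acid breakdown, at 28.3 to 55.7 FPKM in 3 libraries and at 0 under the lung and heart labels.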

How the data were processed

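The authors deposited 1 table of gene values for 5 libraries. Its values were taken as FPKM by elimination: 99.0% of the deposited values above 0 were not whole numbers, and the totals differ between libraries and exceed the fixed total of TPM. Per the submitters' processing notes, bcl2fastq, STAR and RSEM were used with the ARS-UCD1.2 build. Nothing further on them, such as versions, annotation or filters, is given in the sources used here. Sample names in the labels gave each column its tissue label.

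Values were used as deposited, with Python 3.11.15, numpy 2.4.6 and pandas 2.3.3. Ratios and log2 values used a pseudocount of 1 FPKM. With 1 library per label no test was run, and depth and counting intervals are unknown. The galectins, the gene lists and the rules were chosen with earlier results of these data known. The text names all entries with a galectin symbol. Only 19856 of the 27607 entries carry a symbol, so a galectin among the others would be missed. From each of the 3 lists of genes working with galectins it names the 6 with the highest mean and all enriched or depleted ones. It also names some genes chosen for their role or after their values were seen, and the 5 genes closest in pattern to LGALS1 and LGALS3. Enrichment shares count genes at 10 FPKM or more in the library (depletion: lowest of the other 4). None of the 27607 Ensembl identifiers matched the RefSeq table, so neighbours were matched by symbol, 9 of 11 galectin symbols matched, and no positions or sequences are given. The alternatives were other pseudocounts, minimums, ratios and references, and 3 rescalings.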

Additional observations from a re-analysis of the deposited data

How the results depend on the processing

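No paired analysis was possible because each label has 1 library. All 9 log2 ratios recomputed under the 3 rescalings kept their direction and stayed within 1.5 times of the reported ratio. The rescalings shifted libraries by -0.14 (lung label) to 0.07 (brain label) on the log2 scale. The log2 ratio of LGALS1 for the heart over the brain label stayed between 2.51 and 2.70 under them, that of LGALS3 for the skin over the brain label between 2.85 and 2.92, and that of LGALS8 for the brain over the heart label between 2.001 and 2.19, close to the ratio of 4. At a ratio of 2 the pairs passed numbered 5 for LGALS1 and 7 for LGALS3, and at a ratio of 8 they numbered 0 for both. LGALS3 passed in 2 pairs after rescaling by the median ratio and in 2 after the trimmed mean. LGALS8 passed in 3 pairs with a pseudocount of 10 and in 4 with a minimum of 50 FPKM. The single enriched or depleted call became 0 with a pseudocount of 10 and 0 with a ratio of 8, 4 with a ratio of 2, and 5 with the mean of the other 4 as reference. The 4 calls at a ratio of 2 added LGALS1 and LGALS3 as depleted under the brain label and LGALS3 as enriched under the skin label. With the brain library left out, LGALS8 was called enriched under the heart label instead. With a minimum mean of 10 FPKM, 1 of the 5 genes closest to LGALS1 and 2 of the 5 closest to LGALS3 were shared with those reported. Each change follows from the altered threshold, scale or reference. Depth is unknown, so the zeros of LGALS8 and LGALS4 cannot be read as absence.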
